A study of Homo sapiens with 6 samples.

Results

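Serine synthesis and folate one-carbon metabolism were examined through 10 enzymes, PHGDH, PSAT1, PSPH, SHMT1, SHMT2, MTHFD1, MTHFD2, MTHFD1L, MTHFD2L and ALDH1L2. They were chosen by gene symbol from the 36459 gene rows of the count table, and all 10 were found. PC9 cells are a line from human non-small-cell lung cancer whose growth depends on mutant EGFR, the receptor tyrosine kinase that erlotinib inhibits. The parental group, called PC9, holds 3 RNA-seq libraries from 3 independent cultures. The persister group, called PS, holds 3 libraries made from the cells that remained after 6 days in 15 µM erlotinib, with 9 independent cultures pooled into them. Both groups come from this 1 line, so the libraries say nothing of other EGFR-mutant lines, and how the 9 cultures differ from each other cannot be seen.

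Cells make serine from the glycolytic intermediate 3-phosphoglycerate in 3 steps. Hydroxymethyltransferases then split serine into glycine and a one-carbon unit carried on tetrahydrofolate. In mitochondria SHMT2, MTHFD2 or MTHFD2L and MTHFD1L carry that unit through to formate, which leaves for the cytosol, where MTHFD1 and SHMT1 use one-carbon units for nucleotide and methyl synthesis. The mitochondrial arm is known to be high in many tumours and in proliferating cells.

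Of the 10 enzymes, 8 changed in PS at an adjusted p under 0.01, 6 of them higher and 2 lower, where 56.8% of the 14626 genes tested changed, 28.7% higher and 28.1% lower. The 6 that rose were PHGDH and PSAT1 of the serine pathway and SHMT2, MTHFD2, MTHFD1L and ALDH1L2, which work in mitochondria. The 2 that fell, SHMT1 and MTHFD1, are the cytosolic members. PSPH and MTHFD2L did not pass the test. The 3 PC9 and 3 PS libraries did not overlap for any of the 10, where 71.3% of all genes tested had groups apart. The median log2 fold change was 0.42 over the 10 enzymes and -0.0061 over all genes tested. Values per library are CPM, gene counts scaled to a common library size after TMM normalization, and each log2 fold change is PS minus PC9 with its standard error from edgeR.

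**Figure D1:**
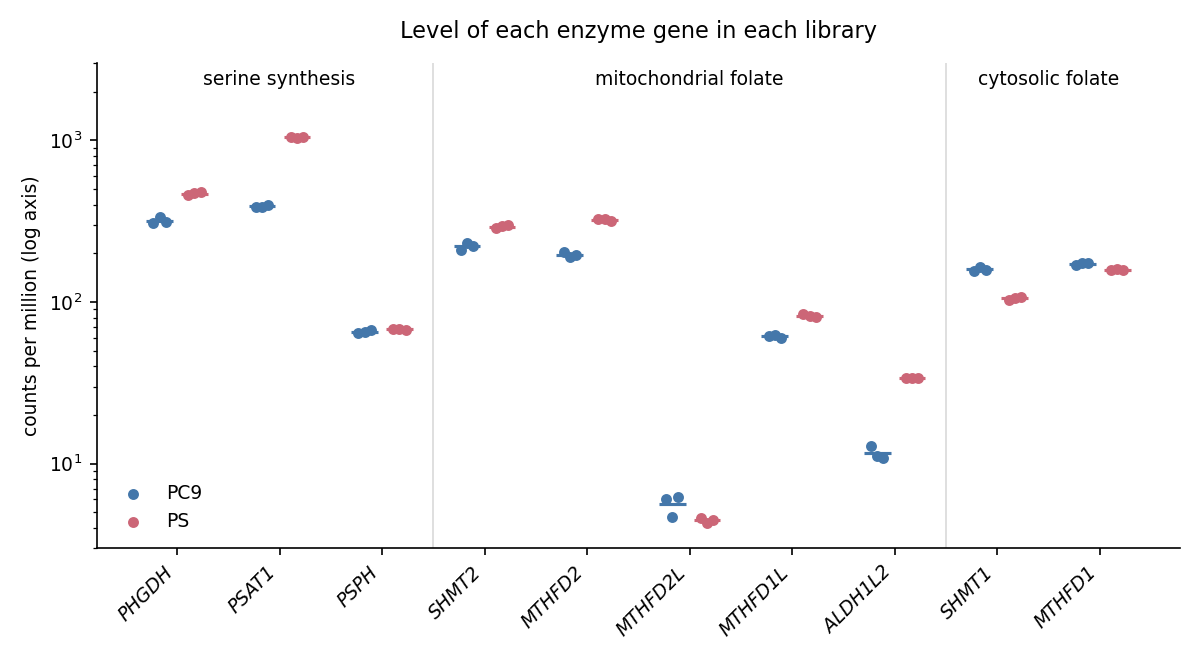
CPM, on a log axis, of the 10 enzymes grouped by role, with 3 PC9 points (blue) and 3 PS points (red) per gene, 1 per library, and a line at each group mean. The PSAT1 points sit between 388 and 398 CPM in PC9 and between 1032 and 1050 CPM in PS, and the groups are closest to each other in PSPH and MTHFD2L.

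Libraries held 29476725 to 34893782 gene counts each. The epithelial keratins and adhesion genes that define this carcinoma line were present throughout, with 6 markers summing to 7519 to 8051 CPM in PC9 and 5936 to 6298 CPM in PS. They moved in both directions at an edgeR adjusted p under 0.01. KRT8, KRT18, KRT19 and EPCAM were lower in PS, and KRT7 and CDH1 were higher. Markers of other cell types were low beside the epithelial ones, the highest in PC9 being CD68 at 73.9 to 75.7 CPM. The 4 fibroblast markers summed to 10.4 to 10.99 CPM in PC9 and 27.3 to 30.7 CPM in PS, nearly all of it COL1A1, and COL3A1 was at 0 in all 6 libraries. The 4 leukocyte markers summed to 74.8 to 76.7 CPM in PC9 and 19.6 to 22.8 CPM in PS, nearly all of it CD68, and CD3E was at 0 in all 6. The 3 endothelial markers summed to 8.05 to 8.82 CPM in PC9 and 3.25 to 3.80 CPM in PS. In bulk RNA a change in the number of cells that carry a transcript and a change in its amount per cell cannot be told apart.

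The stretch before the transcription start was read for the enzymes that RefSeq lists (GRCh38.p14), to see what the members share in sequence. It was searched on both strands for TGATGNAA, the C/EBP-ATF response element that ATF4 dimers bind, for its form TGATGCAA, and for CACGTG, the core of the E-box. The windows ran from 250 bases before to 50 after a start, and 7 of the 10 enzymes had an entry, with 11 windows between them. PSPH, SHMT2 and ALDH1L2 had none. Over all 35116 promoters in that table, TGATGNAA was found in 3.62%, TGATGCAA in 0.866% and CACGTG in 7.26%. Of the 7 enzymes, MTHFD1L held TGATGCAA, and MTHFD1L and MTHFD1 held CACGTG. Overlapping MTHFD1L windows held the same sites. The percentages count promoters and these hits count enzymes, so they are not compared. The 250 bases before the start are shown for 3 enzymes that rose, the first 2 of which had no match, and 30 bases around the match are shown for MTHFD1, which fell. Capitals mark the matches.
PSAT1, chr9:78296875-78297124, plus strand: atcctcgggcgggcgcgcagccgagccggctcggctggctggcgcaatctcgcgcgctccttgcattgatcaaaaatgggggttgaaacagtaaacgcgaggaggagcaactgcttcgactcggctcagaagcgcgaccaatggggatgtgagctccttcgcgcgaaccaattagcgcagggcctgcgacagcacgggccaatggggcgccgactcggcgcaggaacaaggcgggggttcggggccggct
MTHFD2, chr2:74198365-74198614, plus strand: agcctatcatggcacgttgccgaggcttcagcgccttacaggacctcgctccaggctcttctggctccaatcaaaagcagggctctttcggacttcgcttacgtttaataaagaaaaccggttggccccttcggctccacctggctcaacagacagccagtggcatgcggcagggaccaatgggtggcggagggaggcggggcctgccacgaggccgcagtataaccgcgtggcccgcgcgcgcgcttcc
MTHFD1L, chr6:150866236-150866485, plus strand: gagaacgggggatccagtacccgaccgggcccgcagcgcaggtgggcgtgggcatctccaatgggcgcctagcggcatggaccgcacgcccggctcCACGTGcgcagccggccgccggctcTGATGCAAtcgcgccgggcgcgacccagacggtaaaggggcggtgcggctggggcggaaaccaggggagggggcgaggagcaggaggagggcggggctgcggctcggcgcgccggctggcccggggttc
MTHFD1, chr14:64388323-64388352, plus strand: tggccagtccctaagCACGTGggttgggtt
The MTHFD1L start used here lies inside the first intron of MTHFD1L-211, the transcript with the largest share of its counts. TGATGCAA sits at chr6:150866357-150866364 and CACGTG at chr6:150866332-150866337. A shorter annotated transcript, MTHFD1L-212, has its first exon at chr6:150866333-150866387 and its start codon at chr6:150866359-150866361, so TGATGCAA spans that start codon. A match of letters is a description and not a bound site.

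The 3 enzymes of serine synthesis differed in size of response. PSAT1, the aminotransferase of the middle step (chr9:78297125-78330093 of GRCh38), was at 390 CPM in PC9 replicate 1, 388 in replicate 2 and 398 in replicate 3. In PS it was at 1050, 1032 and 1048 CPM. The lowest PS library was well above the highest PC9 library, and PSAT1 rose 2.66-fold (log2 fold change 1.41 ± 0.03, SE, edgeR adjusted p = 8.33e-11), with the 48th smallest p of all genes tested. PHGDH, the dehydrogenase that opens the pathway (chr1:119648411-119744218), was at 306, 334 and 313 CPM in PC9. In PS it was at 459, 470 and 478 CPM. These groups were also apart, and PHGDH rose 1.48-fold (log2 fold change 0.56 ± 0.04, edgeR adjusted p = 4.00e-07). PSPH, the phosphatase that releases serine (chr7:56011051-56051604), was at 64.5, 65.2 and 66.9 CPM in PC9 and at 68.5, 68.2 and 67.3 CPM in PS. The gap between the groups was no larger than the range within PC9, and the log2 fold change was 0.05 ± 0.04 (edgeR adjusted p = 0.231). The genes of the opening and middle steps rose, and that of the last step did not pass the test.

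Among the mitochondrial folate enzymes, ALDH1L2 had the largest fold change of the 10. ALDH1L2 oxidises 10-formyltetrahydrofolate to CO2 and makes NADPH (chr12:105019784-105107643). It was at 12.8, 11.2 and 10.9 CPM in PC9 and at 33.6, 33.8 and 34.1 CPM in PS. Every PS library was well above every PC9 library, at 2.91-fold (log2 fold change 1.54 ± 0.06, edgeR adjusted p = 6.49e-09). MTHFD2, the dehydrogenase and cyclohydrolase of the mitochondrial arm (chr2:74186172-74217565), was at 203, 189 and 196 CPM in PC9 and at 325, 326 and 319 CPM in PS. It rose 1.65-fold (log2 fold change 0.72 ± 0.04, edgeR adjusted p = 3.03e-08), with the groups apart.

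SHMT2, the mitochondrial serine hydroxymethyltransferase (chr12:57229573-57234935), was at 210, 232 and 222 CPM in PC9 and at 286, 296 and 298 CPM in PS. It rose 1.32-fold (log2 fold change 0.40 ± 0.04, edgeR adjusted p = 9.10e-06). MTHFD1L, which releases formate (chr6:150865679-151101887), was at 61.7, 62.4 and 59.8 CPM in PC9 and at 84.3, 82.2 and 81.0 CPM in PS. It rose 1.35-fold (log2 fold change 0.43 ± 0.04, edgeR adjusted p = 3.26e-06). In both genes the groups were apart. MTHFD2L, the paralog of MTHFD2 (chr4:74114174-74303099), was the lowest of the 10 in CPM, with 134 to 209 counts per library. It was at 6.07, 4.67 and 6.18 CPM in PC9 and at 4.59, 4.32 and 4.48 CPM in PS. PC9 replicate 2 lay next to the PS libraries, and the log2 fold change was -0.34 ± 0.12 (edgeR adjusted p = 0.0290), past the limit only when that replicate was left out (-0.46, edgeR adjusted p = 0.0022).

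Both cytosolic members were lower. SHMT1, the cytosolic serine hydroxymethyltransferase (chr17:18327860-18363563), was at 155, 164 and 158 CPM in PC9. In PS it was at 103, 106 and 107 CPM. No PS library came near the PC9 range, and SHMT1 fell to 0.664 of its PC9 level (log2 fold change -0.59 ± 0.04, edgeR adjusted p = 1.97e-07). MTHFD1, the cytosolic enzyme with dehydrogenase, cyclohydrolase and synthetase activities (chr14:64388031-64463457), was at 170, 174 and 173 CPM in PC9 and at 158, 160 and 158 CPM in PS. The groups were apart by a small margin, and the log2 fold change of -0.12 ± 0.03 was just inside the limit (edgeR adjusted p = 0.0093). That call was lost under DESeq2 (adjusted p = 0.0101), under DESeq2 size factors in edgeR (adjusted p = 0.0108), without the filter on low counts (edgeR adjusted p = 0.0205), and when PC9 replicate 2 or 3 or any 1 of the PS replicates was left out (edgeR adjusted p from 0.0173 to 0.0430).

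**Figure D2:**
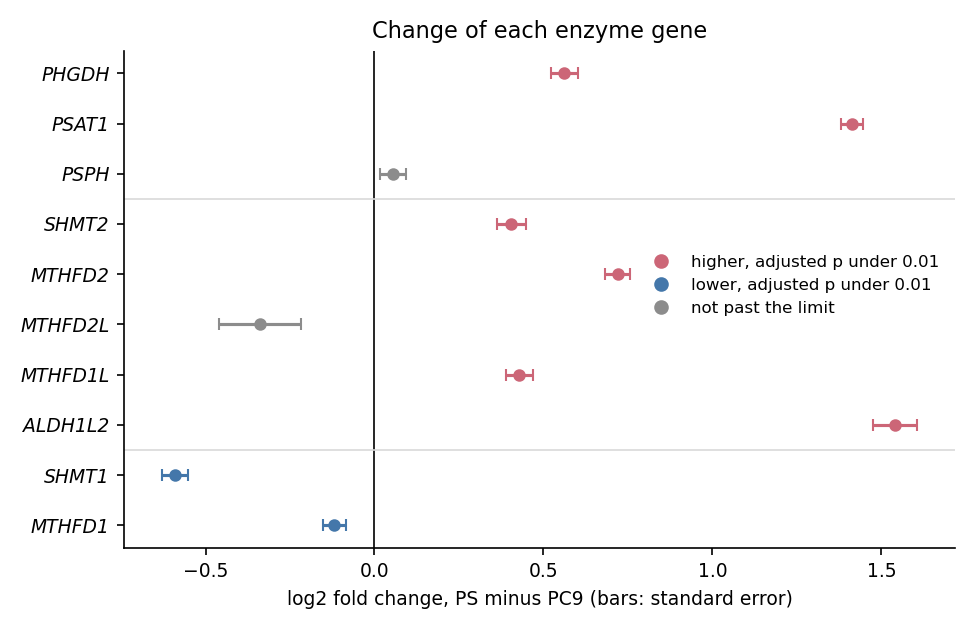
Log2 fold change, PS minus PC9, of the 10 enzymes grouped by role, with points for the edgeR estimate and bars of 1 SE, red where higher and blue where lower at an adjusted p under 0.01 and grey where not past that limit. Values run from -0.59 for SHMT1 to 1.54 for ALDH1L2, with PSPH at 0.05 nearest to 0, MTHFD1 at -0.12 and MTHFD2L at -0.34.

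Counts of 2 enzymes in the same library were also set against each other, since their ratio does not depend on how libraries are scaled. The ratio of SHMT2 to SHMT1 counts was 1.35, 1.41 and 1.41 in PC9 and 2.76, 2.79 and 2.77 in PS, a 1.99-fold difference. The ratio of MTHFD2 to MTHFD1 was 1.19, 1.09 and 1.13 in PC9 and 2.05, 2.03 and 2.02 in PS, 1.79-fold apart. MTHFD1L to MTHFD1 went from 0.363, 0.358 and 0.345 to 0.532, 0.513 and 0.513, 1.46-fold apart. In these 3 pairs the mitochondrial enzyme gained on the cytosolic one in every PS library. The ratio of MTHFD2 to MTHFD2L was 33.4, 40.5 and 31.8 in PC9 and 70.8, 75.4 and 71.2 in PS. The largest difference was that of ALDH1L2 to ALDH1L1, its cytosolic counterpart, at 0.261, 0.221 and 0.207 in PC9 and 1.95, 1.86 and 1.74 in PS, which is 8.08-fold. For each of the 5 pairs the exact two-sided permutation test gave p = 0.1, the smallest value that 3 against 3 libraries allow, and 0.1 after Benjamini-Hochberg adjustment over the 5. This design cannot reach a p under 0.05. From the transcript table, where 27.4% to 57.5% of the MTHFD1 count per library was on matched transcripts, the log2 difference of MTHFD1L to MTHFD1 was 0.41 in place of 0.55 and its groups overlapped (exact permutation p = 0.2).

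**Figure D3:**
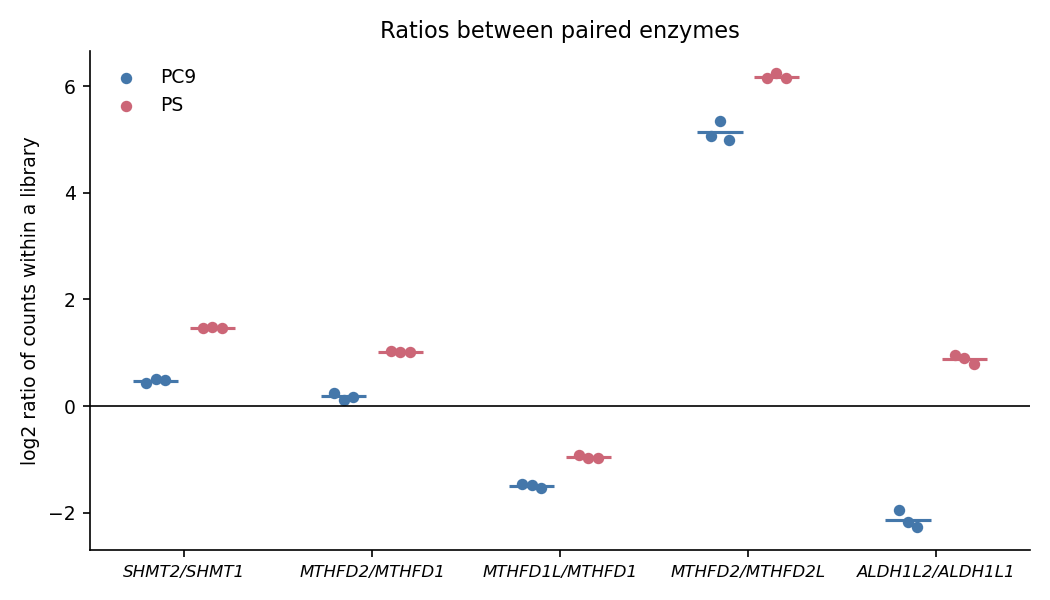
Log2 ratio of the counts of 2 enzymes within each library for 5 pairs, with 3 PC9 points (blue), 3 PS points (red) and a line at each group mean. The PS points are above the PC9 points in every pair, by 1.00 for SHMT2/SHMT1 and by 3.01 for ALDH1L2/ALDH1L1.

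To compare the levels of different enzymes, transcript counts were divided by annotated length and scaled to the same sum in every library (TPM). The TPM of a gene sums all its matched transcripts, also those not annotated as protein-coding. MTHFD1 was left out of this order, because only 27.4% to 57.5% of its gene count per library was on transcripts with an annotated length. Among the other 9, PHGDH led in PC9 at 363 ± 12.4 TPM (SD, n = 3) and PSAT1 followed at 342 ± 8.60 TPM. In PS PSAT1 stood first, at 941 ± 31.2 TPM, and PHGDH second, at 546 ± 8.79 TPM. The PC9 order of these 2 depends on the scale, since as CPM per kilobase PHGDH was at 175.8, 191.7 and 179.9 and PSAT1 at 177.7, 177.1 and 181.5 in PC9, so that they overlapped. SHMT2 came next in both groups, at 248 ± 12.2 TPM in PC9 and 355 ± 9.78 TPM in PS, then MTHFD2, at 199 ± 2.66 and 343 ± 4.96 TPM. The libraries of SHMT2 and MTHFD2 overlapped in PS, and no other neighbours in the TPM order overlapped in either group.

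Lower in the order stood SHMT1, which went from 141 ± 8.77 to 97.2 ± 2.14 TPM, PSPH, from 80.7 ± 2.39 to 87.1 ± 2.52 TPM, and MTHFD1L, from 54.9 ± 2.47 to 65.8 ± 2.01 TPM. ALDH1L2 was last in PC9, at 3.08 ± 0.317 TPM, below MTHFD2L at 5.64 ± 1.00 TPM. In PS ALDH1L2 was above MTHFD2L, at 9.22 ± 0.525 against 5.18 ± 0.251 TPM. On this scale SHMT2 made up 63.8% ± 0.468 (SD, n = 3) of the SHMT1 and SHMT2 transcripts in PC9 and 78.5% ± 0.394 in PS. ALDH1L2 made up 6.89% ± 0.882 of ALDH1L1 and ALDH1L2 in PC9 and 35.1% ± 1.66 in PS, so ALDH1L1 was the more abundant per length in both groups, although in PS its counts were below those of ALDH1L2. MTHFD2 made up 97.2% ± 0.446 of MTHFD2 and MTHFD2L in PC9 and 98.5% ± 0.0841 in PS.

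**Figure D4:**
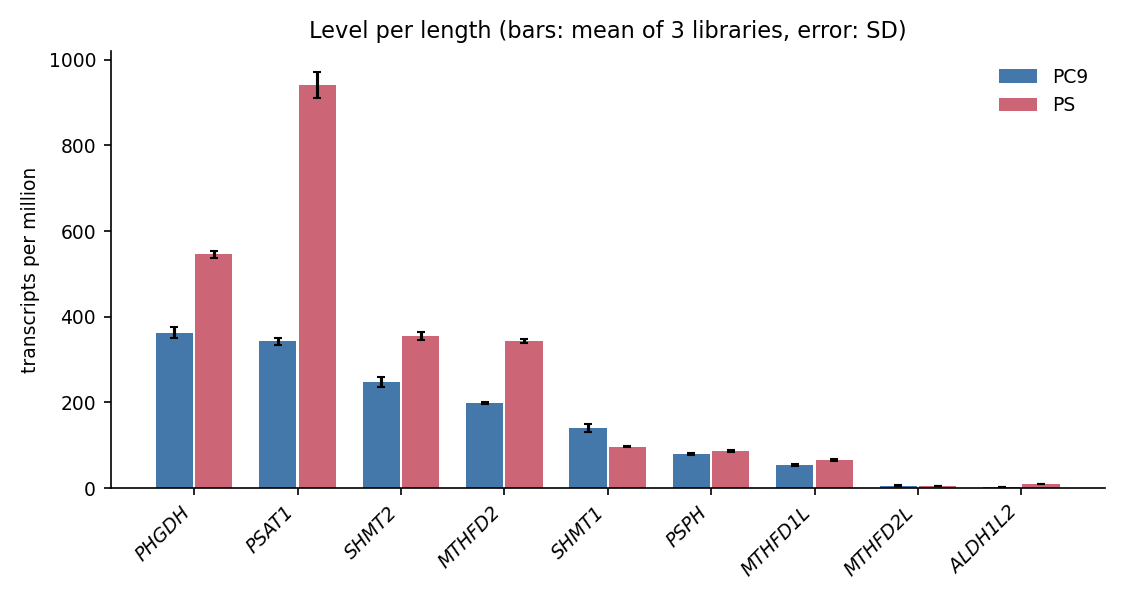
TPM on annotated transcript length, on a linear axis from 0, of the 9 enzymes other than MTHFD1, with bars at the mean of 3 PC9 (blue) and 3 PS (red) libraries and error bars of 1 SD. PSAT1 is above PHGDH in PS, 941 against 546 TPM, and ALDH1L2 is above MTHFD2L there, 9.22 against 5.18 TPM.

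Single transcripts were less well measured than genes. The 10 enzymes have 157 transcripts in the table, of which 70 were tested and 7 changed, 6 higher and 1 lower, where 7.80% of all 54499 transcripts tested changed, 3.89% higher and 3.91% lower. PSAT1-202, which held 97.9% ± 0.285 (SD, n = 3) of the PSAT1 counts in PC9 and 98.6% ± 0.218 in PS, rose by 1.40 ± 0.03 on the log2 scale (SE, edgeR adjusted p = 1.1e-05). ALDH1L2-201 held 96.2% in both groups and rose by 1.52 ± 0.07 (edgeR adjusted p = 0.00015). For MTHFD2 the 3 main transcripts, MTHFD2-201, MTHFD2-203 and MTHFD2-205, rose by 0.65, 0.72 and 0.73. Their shares of the gene moved by less than the spread between replicates. MTHFD2-205, with the largest mean share, 39.6% in PC9 and 40.6% in PS, is annotated as a target of nonsense-mediated decay. SHMT1-201, the main SHMT1 transcript, fell by 0.66 ± 0.04 (edgeR adjusted p = 0.0004). PHGDH was spread over PHGDH-202, PHGDH-230 and PHGDH-210, with log2 fold changes of 0.60, 0.41 and 0.54. None of these passed the limit although the gene did. PHGDH-230 has no defined coding sequence in the annotation. In SHMT2 the minor SHMT2-216 rose by 0.92 ± 0.14 (edgeR adjusted p = 0.0090), while the main SHMT2-201, at 0.20 ± 0.07, did not pass the limit (edgeR adjusted p = 0.103). SHMT2-202, at 0.60 ± 0.13, did not pass the limit either (edgeR adjusted p = 0.0263). No transcript of PSPH, MTHFD1, MTHFD1L or MTHFD2L passed it. The main MTHFD2L transcript, MTHFD2L-208, also has no defined coding sequence.

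The mix of transcripts within a gene changed for 1 of the 10, SHMT1 (Simes adjusted p = 0.00632), where 1.88% of the 10545 genes with more than 1 tested transcript changed. It rests on SHMT1-202, with 18, 38 and 10 counts in PC9 and 0 in all 3 PS libraries. That is 0.338%, 0.680% and 0.188% of the SHMT1 counts in PC9 against 0% in PS, where 3 counts would have made a share of at most 0.0994%. The call was lost when transcripts under 1 CPM were left out (Simes adjusted p = 1.00) and without any 1 of the 6 libraries (Simes adjusted p from 0.0172 to 0.134). The start of MTHFD1L was unevenly assigned: MTHFD1L-212, whose start codon lies within the TGATGCAA shown above, had 24.7%, 0.470% and 6.51% of the MTHFD1L counts in PC9 and 19.5%, 17.4% and 13.3% in PS. Here PC9 replicate 1 lay above all PS libraries and the other 2 PC9 libraries below them, so the groups overlapped (log2 fold change 1.08 ± 1.08, edgeR adjusted p = 0.594).

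Around the 10 enzymes, 55 other genes of one-carbon metabolism were read from the same fit in 6 lists. Of these, 46 were tested and 28 changed, 19 higher and 9 lower. The share that changed was near the 56.8% of all genes tested, where 28.7% were higher and 28.1% lower. By direction, a larger share of these genes was higher and a smaller share lower, a comparison with no test. Serine and glycine transport at the plasma membrane was higher in 5 of 5 tested genes, where 28.7% of all genes were higher. SLC1A4, a carrier of alanine, serine and cysteine, was at 12.96, 15.8 and 13.4 CPM in PC9 and at 95.8, 95.7 and 98.0 CPM in PS. It rose by 2.78 ± 0.07 on the log2 scale (edgeR adjusted p = 9.93e-11), more than any of the 10 enzymes. SLC6A9, a glycine carrier, rose by 1.26 and SLC38A1, a neutral amino acid carrier, by 0.80. In the list of folate uptake and retention 4 of 5 tested genes were higher, where 28.7% of all genes were higher. Among them were SLC46A1, the proton-coupled folate carrier, at 0.41, and SLC19A1, the reduced folate carrier, at 0.31. GGH, the hydrolase that trims folate polyglutamates, was also higher, at 0.47. FPGS, which adds the glutamates, was at -0.11 and did not pass the test (edgeR adjusted p = 0.0995). The list of carriers that link serine and folate to mitochondria also held MTFMT, an enzyme. Of its 7 genes, 2 changed, a share below the 56.8% of all genes tested. SLC25A32, the mitochondrial folate carrier, rose by 0.36 and SFXN3, a sideroflexin, fell by 0.54. SFXN1, the main mitochondrial serine carrier, was at 52.1 to 56.1 CPM in PC9 and 53.1 to 56.8 CPM in PS (log2 fold change 0.03, edgeR adjusted p = 0.539).

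Of the other folate cycle enzymes 4 were higher and 3 lower of 11 tested, shares near the 28.7% and 28.1% of all genes. ALDH1L1 had the largest change, from 49.1, 50.4 and 52.7 CPM in PC9 to 17.2, 18.2 and 19.6 CPM in PS (log2 fold change -1.47 ± 0.06, edgeR adjusted p = 3.96e-09), opposite in direction to ALDH1L2. TYMS, thymidylate synthase, fell by 0.32. MTRR, which keeps methionine synthase active, rose by 0.34 and MTHFS by 0.47. In glycine and serine turnover 2 genes were higher and 2 lower of 11 tested, shares below the 28.7% and 28.1% of all genes. GLDC, the decarboxylase of the glycine cleavage system, went from 0.378, 0.411 and 0.505 CPM to 0.993, 1.08 and 1.26 CPM (log2 fold change 1.36 ± 0.24, edgeR adjusted p = 0.00048). GCAT, glycine C-acetyltransferase, fell by 0.49 and SRR, serine racemase, by 0.24, while SDSL, a serine dehydratase-like gene, rose by 0.33. In the methionine cycle and transsulfuration 3 were higher and 3 lower of 7 tested, beside the same 28.7% and 28.1% of all genes. CTH, which makes cysteine from cystathionine, rose by 1.24, and CBS, the step before it, was at 68.2 to 74.8 CPM in PC9 and 71.1 to 76.8 CPM in PS (edgeR adjusted p = 0.211). AHCYL2 rose by 0.34 and MAT2A, which makes S-adenosylmethionine, by 0.19, while AHCYL1 fell by 0.33, MAT2B by 0.20 and AHCY by 0.17.

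**Figure D5:**
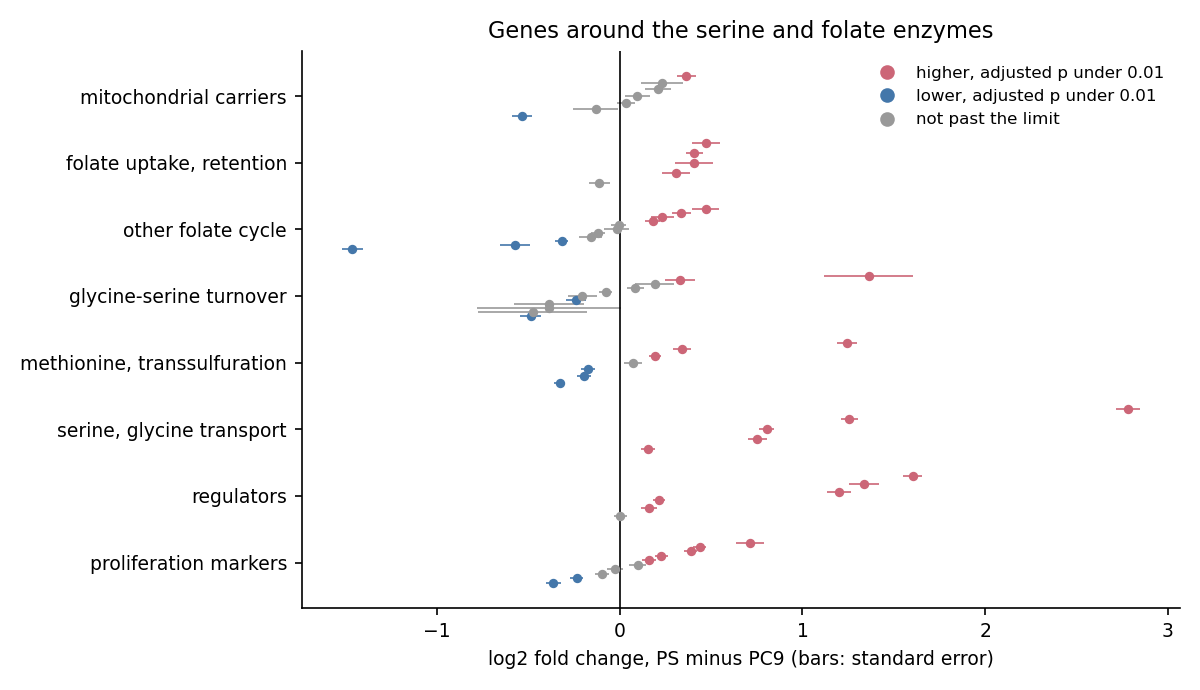
Log2 fold change, PS minus PC9, of the tested genes in the 6 lists of one-carbon neighbours and in the lists of regulators and proliferation markers, 1 point per gene with bars of 1 SE, red where higher and blue where lower at an adjusted p under 0.01 and grey where not past that limit. The 5 transport genes are all above 0, led by SLC1A4 at 2.78, and ALDH1L1 at -1.47 is the lowest point.

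Among 6 regulators that textbooks tie to the pathway, 5 were higher, beside 28.7% of all genes tested. ATF4, which drives amino acid synthesis genes and is controlled largely at translation, was at 502, 514 and 505 CPM in PC9 and at 570, 605 and 590 CPM in PS (log2 fold change 0.21 ± 0.03, edgeR adjusted p = 0.00024). The change in its mRNA was smaller than in its partners and targets ATF3 (1.60), DDIT3 (1.34) and TRIB3 (1.20), a comparison of sizes with no test of the differences. MYC had 0.16 ± 0.04 (edgeR adjusted p = 0.0077) and NFE2L2 0.00 ± 0.03 (edgeR adjusted p = 0.962). These mRNA levels do not measure activity of the factors.

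Of 10 proliferation markers, 7 changed, 5 higher and 2 lower, beside 56.8% of all genes tested, and their median log2 fold change was 0.13. MKI67 was at 242, 191 and 236 CPM in PC9 and at 377, 351 and 369 CPM in PS (log2 fold change 0.71 ± 0.08, edgeR adjusted p = 9.79e-06). PCNA fell by 0.24 and MCM2 by 0.37. The part of cell division in the results above was not tested.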

How the data were processed

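Groups and replicate numbers follow the labels; dose and culture numbers are those of the study's methods. Poly-A libraries were made, and the authors filtered the reads and pseudoaligned them with Kallisto 0.46.1 to Ensembl transcripts of GRCh38. They deposited Kallisto's estimated counts, rounded and not normalized, per gene symbol and per transcript. Libraries of another laboratory in the study were not analysed here.

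The 10 enzymes, the lists and the tests were chosen with earlier results of these data known. Genes passing filterByExpr were tested in R 4.3.3 with edgeR 4.0.16 (TMM, glmQLFit, glmQLFTest, Benjamini-Hochberg over all genes tested, limit 0.01), without a replicate block, in 3 PC9 and 3 PS libraries. The p-values set the difference between the groups against the spread between these libraries. The PS libraries are pools, so that spread leaves out part of the difference between the 9 cultures. Transcripts were tested likewise and usage with diffSpliceDGE. The fit was tested on simulated data. Named neighbours are the up to 3 genes higher and 3 lower with the smallest p in each list, ALDH1L1 as the counterpart of ALDH1L2 and ATF4 as a factor of the study, plus genes named for their role after their values were seen (FPGS, SFXN1, CBS, MYC, NFE2L2). Some genes this rule picks are not reported here. Named transcripts were taken from the main one of each enzyme and those with a share of at least 10%. Some transcripts this rule picks are not reported here. SHMT1-202 was added because the usage call rests on it. Lengths and coordinates are from GENCODE 44, which matched 167067 of 188753 transcripts with 95.8% of transcript counts. Pseudogene rows of the enzymes held at most 0.0776% of the parent's count. No test takes in how surely a read was assigned among similar transcripts. The limit for a count of 0 covers counting error only. Alternatives were DESeq2 1.42.0, limma 3.58.1 (voom), other scalings and filters, a fold limit of 2, a replicate block and leaving out each library.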

Additional observations from a re-analysis of the deposited data

How the results depend on the processing

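Of the 8 calls among the 10 enzymes, 7 kept direction and call under all 14 alternatives each, 98 values in all, and MTHFD1 did not. Over 33 genes picked from the neighbour, regulator and proliferation lists, 446 of 462 values kept their call, 16 lost it (among them values of AHCY, SDSL, SFXN3, SLC19A1 and SRR) and none turned direction. With a fold change above 2 also required, 2 of the 10 enzymes passed (2 higher, PSAT1 and ALDH1L2, and 0 lower). So did 5 of the 46 one-carbon neighbours tested and 1691 of the 14626 genes tested, in place of 8307. With MTHFD1 lost, 1 enzyme was lower under DESeq2 size factors, with no filter, under DESeq2, and with counts summed from transcripts (log2 fold change -0.05, adjusted p = 0.852), and 1 or 2 were lower when 1 library was left out.

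Transcript results were less stable. Leaving out any 1 library left 4 to 6 enzyme transcripts (4 without PS replicate 3) and 1549 to 2649 of all transcripts called in place of 4252, with 1549 without PC9 replicate 3. Usage was called for 0 or 1 enzyme, PSPH without PC9 replicate 3 (Simes adjusted p = 0.0050) and SHMT2 without PC9 replicate 2 (0.0075), and for 0 when transcripts under 1 CPM were left out. Over all genes an F-test for usage called 428 in place of 198. From the transcript table the log2 difference of MTHFD2 to MTHFD1 was 0.71 (exact permutation p = 0.1) and that of MTHFD1L to MTHFD1 0.41 (exact permutation p = 0.2). As CPM per kilobase, added after seeing the data, MTHFD1 stood 6th of 10 in PC9 and 5th in PS in place of 8th, PSPH 7th in both, MTHFD1L 8th in both and SHMT1 6th in PS, while PHGDH and PSAT1 overlapped in PC9.

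The replicate numbers were not treated as a pairing, since deviations of same-numbered libraries correlated at 0.124, 0.0236 and 0.0215, and not every library correlated best with its own number. With a replicate block, 8 enzymes were called at the gene level as without it, 3 enzyme transcripts in place of 7, 813 of all transcripts, 0 enzymes for usage and 98 of all genes for usage. Other scalings moved the median log2 fold change of all genes by at most 0.053 downwards. With 3 libraries a group, changes as small as that of MTHFD1 lie at the limit of what could be called.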
